A study of Mus musculus with 6 samples.

Results

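The 10 genes described here are grouped as antiviral effectors. Most encode proteins that act directly on viruses or on the nucleotides viruses need. These are the dynamin-like GTPases Mx1 and Mx2, viperin (Rsad2) and its neighbour Cmpk2, tetherin (Bst2) and the nucleotide hydrolase Samhd1. The membrane proteins Ifitm2, Ifitm3 and Ifitm6 also belong here. Xaf1, a XIAP-binding protein, is listed with them but is not of this kind. All 10 were taken by symbol from an expression table of 55736 genes, in which each of the 10 has 1 row. RNA sequencing was done on bone marrow-derived macrophages, cells grown from mouse marrow in culture, that were wild type in every library. The control group (3 libraries) and the group given lipopolysaccharide (LPS, an outer-membrane glycolipid of Gram-negative bacteria, at 200 ng/ml; 3 libraries) were both collected at 24 h. Titles of the LPS samples include a further number, 500, that no label explains, and the labels used here do not name the strain, sex, age or culture medium. Nothing in the labels says that the libraries of a group are biologically independent, so each p-value reflects the spread of these libraries, which may be technical. Levels are TPM, transcript abundances scaled for gene length and to a total of 1000000 per library, so levels of different genes can be set side by side. Sequencing depth cannot be read from TPM and is unknown.

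In macrophages LPS is sensed by Toll-like receptor 4, which through the adaptor TRIF leads to release of interferon beta. Type I interferon then acts on the same and on neighbouring cells through its receptor, JAK kinases and a transcription factor complex that contains IRF9, which binds interferon-stimulated response elements in promoters. Mx proteins, viperin, tetherin and IFITM proteins are textbook products of such interferon-stimulated genes. They act at separate steps of infection: IFITM proteins on membrane fusion during entry, Mx proteins on viral nucleoproteins, Samhd1 and viperin on nucleotides for genome copying, and tetherin on the release of budded particles.

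Promoters are shown first, as background to the 10 genes, which all rose with LPS but by very different amounts. Whether promoter sequence bears on these rises was not tested. RefSeq promoters of GRCm38.p6 (250 bases before to 50 after the start) were matched by symbol for 8 genes and not for Mx1 and Mx2. The lines below give the 200 bases that end 50 bases after the start, 5′ to 3′ on the gene's strand, for the viperin pair, tetherin and the IFITM genes. They lie at chr12:26456403-26456602 (minus strand, Rsad2), chr12:26469065-26469264 (plus strand, Cmpk2), chr8:71537423-71537622 (minus strand, Bst2), chr7:140955912-140956111 (minus strand, Ifitm2), chr7:141010695-141010894 (minus strand, Ifitm3) and chr7:141016843-141017042 (minus strand, Ifitm6). The GENCODE M21 annotation places Ifitm6 at 141015699 to 141017924, so its RefSeq window lies wholly inside that gene and not at its 5′ end. Capitals mark matches to GAAANNGAA, or TTCNNTTTC on the other strand, the core of an interferon-stimulated response element.
Rsad2: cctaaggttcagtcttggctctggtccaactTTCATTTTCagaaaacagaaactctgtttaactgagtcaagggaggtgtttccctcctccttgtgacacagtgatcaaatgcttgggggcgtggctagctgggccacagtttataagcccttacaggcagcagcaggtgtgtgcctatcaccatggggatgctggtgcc
Cmpk2: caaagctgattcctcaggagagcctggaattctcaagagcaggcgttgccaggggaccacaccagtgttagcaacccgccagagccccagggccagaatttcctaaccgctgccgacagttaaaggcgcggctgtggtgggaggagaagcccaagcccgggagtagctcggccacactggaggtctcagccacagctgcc
Bst2: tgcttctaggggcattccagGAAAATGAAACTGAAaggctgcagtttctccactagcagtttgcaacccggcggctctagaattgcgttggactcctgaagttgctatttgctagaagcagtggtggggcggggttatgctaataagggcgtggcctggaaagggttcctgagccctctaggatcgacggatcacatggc
Ifitm2: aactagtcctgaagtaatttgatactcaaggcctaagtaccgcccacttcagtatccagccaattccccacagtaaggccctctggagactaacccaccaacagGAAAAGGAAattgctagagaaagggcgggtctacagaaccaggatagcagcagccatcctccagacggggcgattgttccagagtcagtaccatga
Ifitm3: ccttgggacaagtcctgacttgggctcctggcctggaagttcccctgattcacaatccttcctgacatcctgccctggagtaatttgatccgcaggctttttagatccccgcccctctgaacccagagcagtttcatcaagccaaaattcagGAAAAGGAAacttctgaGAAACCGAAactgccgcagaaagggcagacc
Ifitm6: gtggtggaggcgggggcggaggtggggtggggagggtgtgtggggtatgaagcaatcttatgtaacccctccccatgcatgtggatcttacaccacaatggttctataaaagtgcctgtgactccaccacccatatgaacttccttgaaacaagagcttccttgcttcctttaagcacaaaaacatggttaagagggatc

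The element core GAAANNGAA was found, on either strand, in the promoters of Rsad2, Bst2, Ifitm2 and Ifitm3, 4 of the 8 (50%), against 8.56% of the 32851 promoters of this length in the RefSeq table. Among promoters of all genes that the test below called higher with LPS, 11.5% held it, and among those called lower 6.48%. Bst2 had a pair of overlapping matches, at positions -130 to -122 and -124 to -116 from the start, and Ifitm3 had matches at 3 to 11 and 20 to 28, after the start. Rsad2 had its match at -119 to -111 and Ifitm2 at -46 to -38. The STAT element TTCNNNGAA, which reads the same on both strands, was in Bst2 (-136 to -128), Samhd1 (-235 to -227), Ifitm3 (14 to 22) and Ifitm6 (-10 to -2), against 8.3% of all promoters. In Bst2 and Ifitm3 the STAT match overlaps a match to the interferon element. The NF-kB element GGGANTTTC, or GAAANTCCC on the other strand, was in 0 of the 8 and in 1.11% of all promoters. A match is a description of the letters and not a binding site, and a promoter without a match, such as those of Cmpk2 and Xaf1, says only that these letters are not in this window.

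**Figure D1:**
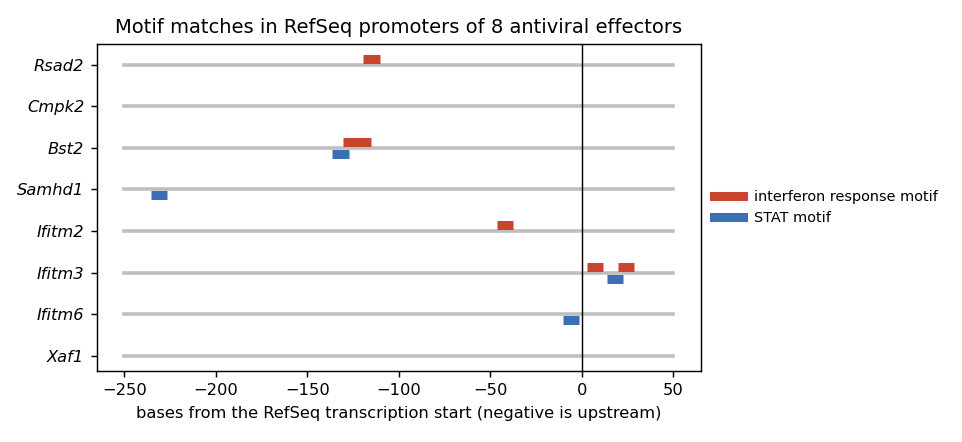
Matches to the interferon element core (red) and the STAT element (blue) in the promoters of 8 genes, by distance in bases from the RefSeq start (negative values lie upstream). The matches of Ifitm3 lie after the start, those of Bst2 and Rsad2 lie more than 100 bases before it, and Cmpk2 and Xaf1 have none.

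Libraries of the same group resembled each other, with Spearman correlations across the 12440 tested genes of 0.983 to 0.987, against 0.826 to 0.838 between groups. A gene was tested if 3 or more of the 6 libraries had it at 1 TPM or above. Changes are differences of mean log2(TPM + 1), LPS minus control, tested with limma, and a gene is called at a Benjamini-Hochberg adjusted p of at most 0.05 over all tested genes. The median change over all tested genes was -0.44, and median-of-ratios scaling, which centres the libraries on their typical gene, moved it to 0.00. Every change below would therefore be higher relative to the typical gene than it is in TPM, and the changes under that scaling are given where they matter.

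All 10 genes passed the filter on low values, and all 10 were called higher with LPS. Over all tested genes 16.3% were called higher and 59.8% lower, that is 2028 and 7441 genes, which became 4167 and 4181 with median-of-ratios scaling. Of the 10 genes, 9 rose by at least 1 on the log2(TPM + 1) scale, against 6.62% of all tested genes called higher by that much, and 8 were in the top 5% of tested genes by rise. In all 10 every LPS library lay above every control library, which held for 17.3% of tested genes. The median change of the 10 was 2.78, between 0.79 for Samhd1 and 4.61 for Mx1, and 3.25 after median-of-ratios scaling. Together the 10 genes took 0.142% ± 0.00201 (SD, n = 3) of the TPM of a control library and 0.737% ± 0.0104 (SD, n = 3) of an LPS library. RNA was measured in bulk, so more cells with a transcript and more RNA per cell cannot be told apart.

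**Figure D2:**
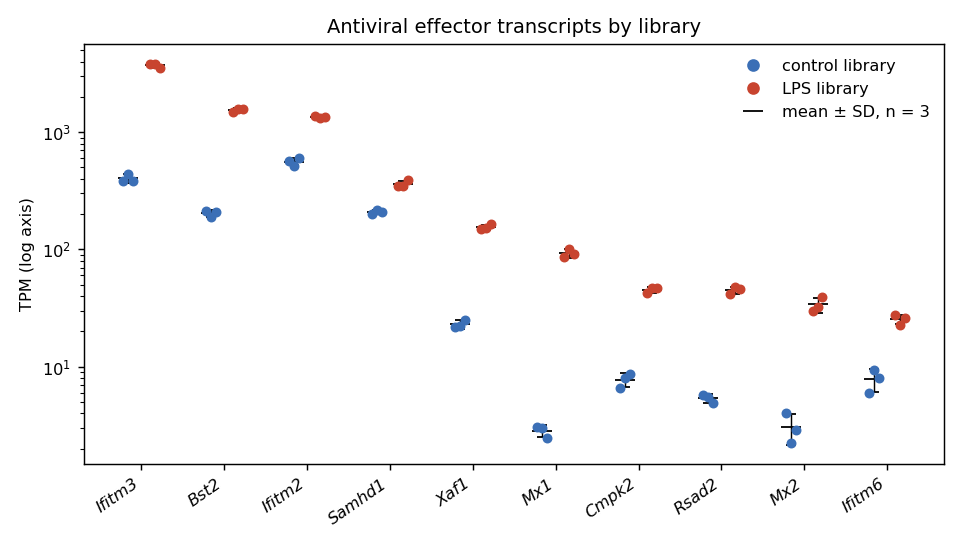
TPM of the 10 genes (log axis) in each of the 3 control libraries (blue) and the 3 LPS libraries (red), with the mean ± SD, ordered by the level with LPS. The groups do not overlap for any gene, and the order runs from Ifitm3 (3720 TPM with LPS) to Ifitm6 (25.4 TPM).

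The order of levels changed between the groups. In control libraries Ifitm2 had the highest mean level (560.2 TPM), followed by Ifitm3 (404 TPM), Samhd1 (208 TPM), Bst2 (203 TPM), Xaf1 (23.0 TPM), Ifitm6 (7.83 TPM), Cmpk2 (7.75 TPM), Rsad2 (5.36 TPM), Mx2 (3.05 TPM) and Mx1 (2.84 TPM). Samhd1 and Bst2, Ifitm6 and Cmpk2, and Mx2 and Mx1 are neighbours in this order whose library values overlapped. With LPS the order was Ifitm3 (3720 TPM), Bst2 (1546 TPM), Ifitm2 (1344 TPM), Samhd1 (361 TPM), Xaf1 (155 TPM), Mx1 (92.3 TPM), Cmpk2 (45.3 TPM), Rsad2 (45.0 TPM), Mx2 (33.9 TPM) and Ifitm6 (25.4 TPM), and the only neighbours that overlapped were Cmpk2 and Rsad2. Mx1 thus moved from the last place to the sixth. Ifitm3, Bst2 and Ifitm2 were among the 100 genes with the highest mean TPM in LPS libraries, and 0 of the 10 were in control libraries.

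Mx1, in the mouse a nuclear GTPase known for blocking influenza virus, showed the largest rise of the 10. It was at 3.03, 3.02 and 2.46 TPM in control libraries 1 to 3 and at 85.7, 101 and 90.6 TPM in LPS libraries 1 to 3. The lowest LPS library was 28.3 times the highest control library. Mean TPM rose 32.5-fold, from 2.84 ± 0.326 to 92.3 ± 7.61 (SD, n = 3), and the change was 4.61 on the log2(TPM + 1) scale with SE 0.094 and a 95% interval of 4.38 to 4.83 (limma, adjusted p = 3.226e-08), rank 72 of 12440 by rise.

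Mx2, a cytoplasmic relative of Mx1 in the mouse, was at 4.0, 2.25 and 2.89 TPM in control libraries 1 to 3, and LPS libraries 1 to 3 had 30.0, 32.1 and 39.4 TPM. The groups did not overlap, and relative to its mean the spread was wider than that of Mx1. Mean TPM rose 11.1-fold, from 3.05 ± 0.885 to 33.9 ± 4.94 (SD, n = 3), a change of 3.12 with SE 0.174 and a 95% interval of 2.71 to 3.53 (limma, adjusted p = 3.12e-06). The genes lie side by side on chromosome 16 of GRCm38, Mx1 at 97447035 to 97462907 on the minus strand and Mx2 at 97535308 to 97560900 on the plus strand, with Fam3b between them, which averaged 0 TPM without and 0.33 TPM with LPS and was not tested. RefSeq lists both as transcribed pseudogenes on this assembly, which is of C57BL/6J, and GENCODE M21 lists Mx1 as protein-coding and Mx2 as a polymorphic pseudogene. Many laboratory strains are known to carry defective Mx genes, and the allele in these cells was not analysed here. Of the windows of 50 bases along the transcripts, 4.77% of those of Mx1 and 6.72% of those of Mx2 occur in the other gene.

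The ratio of Mx1 to Mx2 in TPM was 0.757, 1.34 and 0.851 in control libraries and 2.85, 3.13 and 2.30 in LPS libraries. In controls neither gene was the higher in every library, and Mx1 was the higher in each LPS library. The log2 ratio of (TPM + 1) went from -0.06 ± 0.324 to 1.43 ± 0.224 (SD, n = 3), a difference of 1.48 (two-sided exact permutation p = 0.1, the smallest that 3 against 3 libraries can give, and 0.1 after adjustment over the 4 pairs of genes compared). The same p was found for each of the 4 pairs.

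Rsad2 encodes viperin, a radical SAM enzyme that turns CTP into a chain-terminating analogue, and Cmpk2 encodes a mitochondrial nucleotide kinase that supplies CTP. Rsad2 was at 5.72, 5.5 and 4.85 TPM in control libraries 1 to 3, and LPS libraries 1 to 3 had 41.6, 47.5 and 45.9 TPM. Cmpk2 was at 6.63, 8.03 and 8.58 TPM in control libraries 1 to 3, and LPS libraries 1 to 3 had 42.4, 46.8 and 46.8 TPM. In both genes the groups were far apart, and in LPS libraries the 2 genes reached the same range. Rsad2 rose 8.41-fold in mean TPM, a change of 2.86 with SE 0.085 and a 95% interval of 2.65 to 3.06 (limma, adjusted p = 1.456e-07). Cmpk2 rose 5.85-fold, a change of 2.41 with SE 0.099 and a 95% interval of 2.18 to 2.64 (limma, adjusted p = 6.676e-07).

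The 2 genes are neighbours on chromosome 12 that point away from each other, Rsad2 at 26442746 to 26456452 on the minus strand and Cmpk2 at 26469204 to 26479837 on the plus strand, with 12751 bases between them. The promoters printed above are those of the facing ends. The interferon element core is in that of Rsad2 and not in that of Cmpk2. Their TPM ratio, Rsad2 to Cmpk2, was 0.863, 0.685 and 0.565 in control libraries and 0.983, 1.02 and 0.981 in LPS libraries. In each control library Cmpk2 was the higher, while in LPS libraries the ratio stayed within a few percent of equal levels. The log2 ratio went from -0.46 ± 0.265 to -0.01 ± 0.028 (SD, n = 3), a difference of 0.45 (exact permutation p = 0.1).

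**Figure D3:**
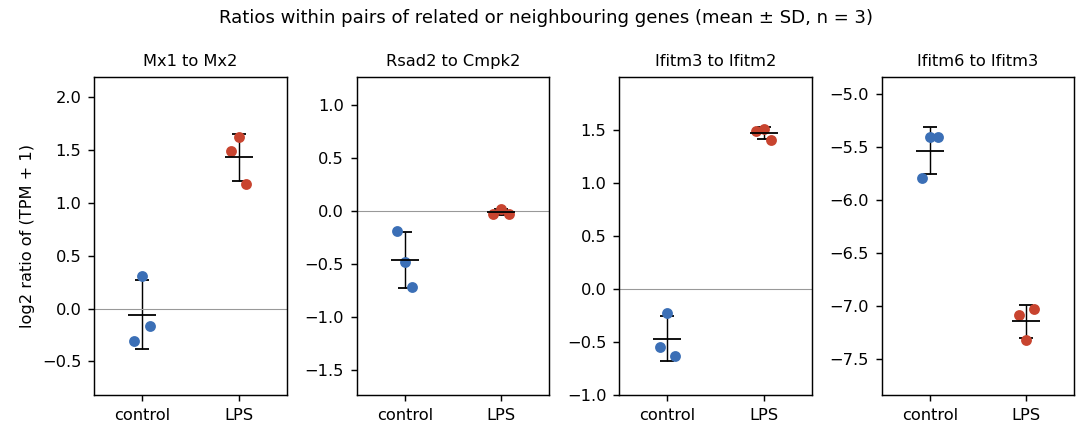
log2 ratio of (TPM + 1) within 4 pairs of related or neighbouring genes in each library, with the mean ± SD of 3; each panel spans the same number of log2 units, and a grey line marks equal levels. The groups are apart in every panel, and the shift is smallest for Rsad2 to Cmpk2 (0.446) and largest for Ifitm3 to Ifitm2 (1.94).

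Bst2 encodes tetherin, a protein anchored in the cell membrane at both ends that holds budding enveloped virions on the cell surface. It was at 212, 188 and 207 TPM in control libraries 1 to 3, and LPS libraries 1 to 3 had 1475, 1580.0 and 1584 TPM. The lowest LPS library was 6.94 times the highest control. Mean TPM rose 7.63-fold, from 203 ± 12.6 to 1546 ± 62.0 (SD, n = 3), a change of 2.93 with SE 0.059 and a 95% interval of 2.79 to 3.07 (limma, adjusted p = 3.028e-08, the lowest of the 10). By mean TPM in LPS libraries it was rank 53 of 12440. Bst2 lies on chromosome 8 at 71534255 to 71537456 (minus strand), and its promoter held a pair of overlapping interferon element cores. In the mouse Bst2 protein (PDCA-1) is also used as a marker of plasmacytoid dendritic cells, and markers of those cells are given below. Mvb12a, the next protein-coding gene, which works in sorting to multivesicular bodies, was at 113 TPM without and 112 TPM with LPS (change -0.01, limma, adjusted p = 0.9258), or 0.48 after median-of-ratios scaling (limma, adjusted p = 0.002427).

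Samhd1 hydrolyses deoxynucleoside triphosphates and so limits reverse transcription in macrophages. It was at 202, 215 and 208 TPM in control libraries 1 to 3, and LPS libraries 1 to 3 had 345, 349.8 and 389 TPM. The groups were apart, but by the smallest margin of the 10, with the lowest LPS library 1.602 times the highest control. Mean TPM rose 1.73-fold, from 208 ± 6.57 to 361 ± 24.4 (SD, n = 3), a change of 0.79 with SE 0.058 and a 95% interval of 0.65 to 0.93 (limma, adjusted p = 1.33e-05). After median-of-ratios scaling the change was 1.28. Rbl1, its neighbour on chromosome 2 and a relative of the retinoblastoma gene, fell from 38.1 to 6.93 TPM, a change of -2.30 (limma, adjusted p = 3.014e-07).

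Of 13 listed genes for enzymes that supply deoxynucleotides, the substrate of Samhd1, all were tested, 0 were called higher, 10 lower and 3 were not called, beside 59.8% of all tested genes called lower, with a median change of -0.78 beside -0.44 over all tested genes. Rrm2, the small subunit of ribonucleotide reductase in dividing cells, was at 169, 168 and 162 TPM in control libraries 1 to 3, and LPS libraries 1 to 3 had 1.36, 1.49 and 1.76 TPM, a change of -6.05 (limma, adjusted p = 6.838e-09). Tyms, thymidylate synthase, averaged 73.8 TPM without and 2.58 TPM with LPS, a change of -4.39 (limma, adjusted p = 1.678e-07). After median-of-ratios scaling 2 of the 13 were called higher and 7 lower, beside 4167 higher and 4181 lower of all 12440 tested genes. Rrm2 and Tyms remained lower, at -5.64 and -3.97.

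IFITM proteins sit in cell and endosome membranes, where Ifitm3 blocks fusion of influenza and other viruses. Ifitm3 was at 386, 441 and 383 TPM in control libraries 1 to 3, and LPS libraries 1 to 3 had 3835, 3794 and 3532 TPM. Every LPS library was at least 8.01 times the highest control. Mean TPM rose 9.22-fold, from 404 ± 32.4 to 3720 ± 164 (SD, n = 3), a change of 3.20 with SE 0.067 and a 95% interval of 3.04 to 3.36 (limma, adjusted p = 3.483e-08). By mean TPM in LPS libraries it was rank 21 of 12440.

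Ifitm2, a close relative also found in endosomes, was at 565, 518 and 598 TPM in control libraries 1 to 3, and LPS libraries 1 to 3 had 1367, 1329.7 and 1335 TPM. The groups did not overlap, and the rise was 2.40-fold, a change of 1.26 with SE 0.058 and a 95% interval of 1.13 to 1.40 (limma, adjusted p = 1.163e-06). Ifitm6, a further family member that is expressed in myeloid cells, was at 6.0, 9.43 and 8.06 TPM in control libraries 1 to 3, and LPS libraries 1 to 3 had 27.3, 22.7 and 26.1 TPM. It was the lowest of the 10 with LPS, and its rise was 3.24-fold, a change of 1.59 with SE 0.152 and a 95% interval of 1.24 to 1.95 (limma, adjusted p = 5.295e-05, the highest of the 10).

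The make-up of IFITM transcripts turned over. Ifitm3 made up 41.6% ± 3.54 of the summed TPM of the 3 genes in control libraries and 73.1% ± 0.799 in LPS libraries, while Ifitm2 went from 57.6% ± 3.66 to 26.4% ± 0.761 and Ifitm6 from 0.805% ± 0.174 to 0.499% ± 0.050 (SD, n = 3 each). The sum went from 972 ± 16.1 to 5089 ± 175 TPM (SD, n = 3). Ifitm2 was thus the major transcript in each control library and Ifitm3 in each LPS library. Their TPM ratio, Ifitm3 to Ifitm2, was 0.684, 0.851 and 0.642 in control libraries and 2.81, 2.85 and 2.65 in LPS libraries, and the log2 ratio differed by 1.94 (exact permutation p = 0.1). Ifitm6 was far below Ifitm3 in both groups, and the gap widened with LPS. The log2 ratio of Ifitm6 to Ifitm3 went from -5.53 ± 0.222 to -7.14 ± 0.156 (SD, n = 3), a difference of -1.61 (exact permutation p = 0.1).

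The 3 genes lie on the minus strand of chromosome 7, Ifitm2 at 140954837 to 140955987, Ifitm3 at 141009586 to 141010770 and Ifitm6 at 141015699 to 141017924, 4928 bases from Ifitm3. Other family members stayed low. Ifitm1, which lies between Ifitm2 and Ifitm3, was at 2.16, 3.46 and 2.34 TPM in control libraries 1 to 3, and LPS libraries 1 to 3 had 3.6, 2.72 and 3.76 TPM, which overlap, and it was not called (change 0.26, limma, adjusted p = 0.1939), although after median-of-ratios scaling it was (change 0.63, limma, adjusted p = 0.01036). Ifitm5, Ifitm7 and Ifitm10 did not pass the filter, with group means of at most 0.38 TPM. The labels used here do not say how reads that match several genes were assigned. Of the windows of 50 bases along Ifitm2, 48.5% also occur in other transcripts, most of them in Gm45717 (36.1%), which was listed at 0 in control and at 1.67, 1.23 and 0.63 TPM in LPS libraries. Only 3.3% of the windows of Ifitm2 occur in Ifitm3, for Ifitm3 the share in any other gene was 10.0%, and for Ifitm6 it was 0.

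Xaf1 binds the caspase inhibitor XIAP and is known to promote cell death. It was at 21.6, 22.1 and 25.2 TPM in control libraries 1 to 3, and LPS libraries 1 to 3 had 149.9, 152 and 164 TPM. The groups were far apart, and mean TPM rose 6.76-fold, from 23.0 ± 1.97 to 155 ± 7.76 (SD, n = 3), a change of 2.71 with SE 0.073 and a 95% interval of 2.54 to 2.88 (limma, adjusted p = 8.701e-08). It lies on chromosome 11 at 72301629 to 72313733 (plus strand). Of 8 genes of the XIAP and caspase list, all tested, 1 was called higher and 7 lower, beside 16.3% higher and 59.8% lower over all tested genes. Their median change was -0.52, close to that of all tested genes (-0.44). The gene that rose was Birc3, an inhibitor of apoptosis that works in NF-kB signalling, from 33.2 to 106 TPM (change 1.65, limma, adjusted p = 5.04e-07). The largest fall was in Casp9, the initiator caspase of the mitochondrial route, from 25.1 to 12.4 TPM (change -0.96, limma, adjusted p = 1.733e-05). After median-of-ratios scaling 1 of the 8 was called higher and 2 lower, Casp9 among the latter. Over all 12440 tested genes that scaling gave 4167 higher and 4181 lower.

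**Figure D4:**
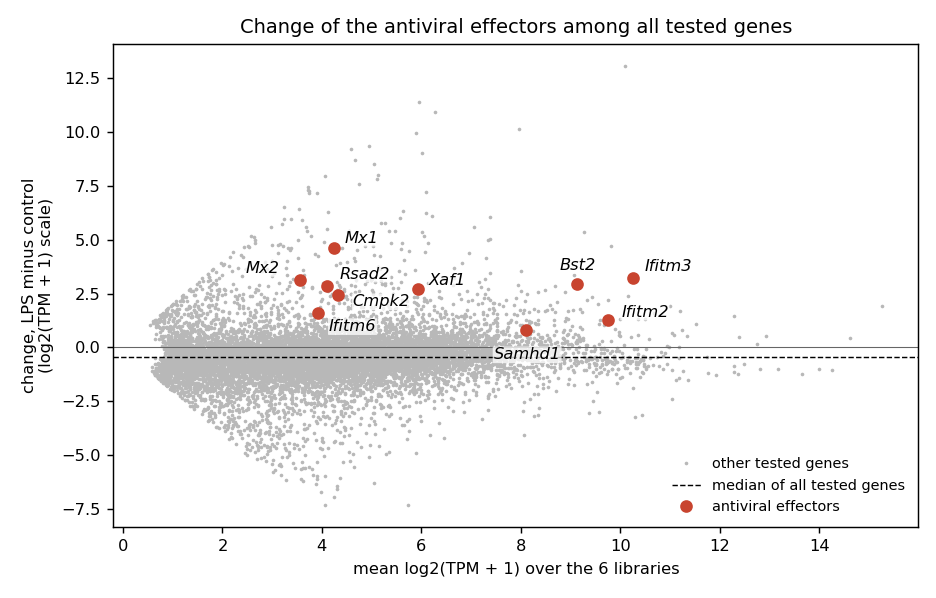
Change, LPS minus control, on the log2(TPM + 1) scale against mean log2(TPM + 1) over the 6 libraries for the 10 genes (red) and the other tested genes (grey), with the median of all tested genes dashed (-0.44). All 10 lie above 0, from Samhd1 (0.79) to Mx1 (4.605), at low and high levels alike.

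Genes of the pathway around the 10 moved both ways. Of 17 listed genes of interferon signalling 16 were tested, of which 10 were called higher, 5 lower and 1 was not called, with a median change of 0.43. Beside them, 16.3% of all tested genes were called higher and 59.8% lower, with a median change of -0.44. The largest rises were in Irf7, the transcription factor that amplifies interferon production, from 28.4 to 944 TPM (change 5.01, limma, adjusted p = 3.301e-09), and in Usp18, which removes ISG15 from proteins and damps the interferon receptor, from 4.72 to 148 TPM (change 4.71, limma, adjusted p = 2.664e-08). The largest falls were in Ifngr1, the ligand-binding chain of the interferon gamma receptor, from 174 to 65.2 TPM (change -1.40, limma, adjusted p = 1.523e-07), and in Irf3, the factor that first switches on interferon beta, from 49.4 to 32.8 TPM (change -0.58, limma, adjusted p = 0.0001085). Irf3 is not called after median-of-ratios scaling (change -0.09, limma, adjusted p = 0.1888). Under that scaling 13 of the 16 were called higher and 1 lower, beside 4167 higher and 4181 lower of all 12440 tested genes. Ifnb1, interferon beta itself, was listed at 0 in 5 libraries and at 0.22 TPM in LPS library 1, and was not tested.

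Of the other antiviral effectors, all 32 listed genes were tested, and 26 were called higher, 4 lower and 2 were not called, with a median change of 1.73. The shares over all tested genes were 16.3% higher and 59.8% lower. After median-of-ratios scaling 29 were higher and 2 lower, beside 4167 higher and 4181 lower of all 12440 tested genes. Isg15, a ubiquitin-like protein attached to other proteins, went from 18.3 to 910.2 TPM (change 5.56, limma, adjusted p = 1.451e-08), and Oasl1, a member of the oligoadenylate synthetase family, from 2.60 to 151 TPM (change 5.40, limma, adjusted p = 6.838e-09). Among those called lower was Ifi27, which went from 164 to 41.7 TPM (change -1.95, limma, adjusted p = 3.565e-07).

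Sensors and their adaptors were split, with 7 of 16 called higher, 8 lower and 1 not called, and a median change of -0.03. Over all tested genes 16.3% were called higher and 59.8% lower, with a median change of -0.44. After median-of-ratios scaling 9 of the 16 were higher and 6 lower, beside 4167 higher and 4181 lower of all 12440 tested genes. Zbp1, a sensor of Z-form nucleic acids, went from 10.2 to 398 TPM (change 5.17, limma, adjusted p = 4.491e-08), and Ddx58, the RNA sensor RIG-I, from 24.9 to 129.8 TPM (change 2.34, limma, adjusted p = 3.271e-07). Tlr4, the LPS receptor, fell from 52.7 to 18.1 TPM (change -1.49, limma, adjusted p = 3.664e-06), and Sting1, the adaptor of cytosolic DNA sensing, fell from 48.7 to 20.7 TPM (change -1.20, limma, adjusted p = 2.516e-06). Of 7 listed large GTPases of the dynamin superfamily other than Mx, 5 were tested. In TPM 0 were called higher, 3 lower and 2 were not called. With 5 genes this is not set apart from the 16.3% called higher and 59.8% called lower over all tested genes. Mfn1, which fuses mitochondria, fell from 23.4 to 11.1 TPM (change -1.01, limma, adjusted p = 1.514e-05), and Opa1, which acts on the inner mitochondrial membrane, from 27.5 to 17.4 TPM (change -0.63, limma, adjusted p = 0.0001387). The direction of this list turns with scaling, since 3 were called higher and 1 lower after median-of-ratios scaling. With 5 genes this too is not set apart from the 4167 higher and 4181 lower of all 12440 under that scaling.

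**Figure D5:**
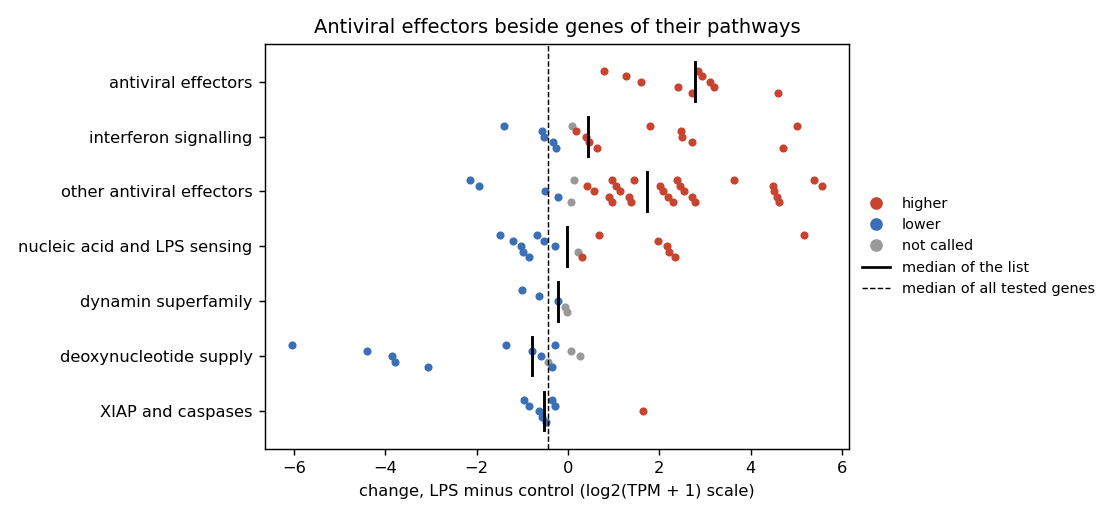
Change, LPS minus control, on the log2(TPM + 1) scale for each tested gene of the 10 antiviral effectors and of 6 related lists, coloured by call, with the median of each list (bar) and of all tested genes (dashed). The 10 lie to the right of 0 (median 2.782), most other antiviral effectors do too (median 1.732), and the deoxynucleotide supply list reaches down to Rrm2 (-6.047).

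Most genes next to the 10 were too low to be tested. Apart from each other, the 10 have 14 distinct nearest protein-coding neighbours in GENCODE M21. In TPM 0 of these were called higher, 1 was called lower (Rbl1), 2 were not called (Mvb12a and Ifitm1) and 11 did not pass the filter on low values. Over all tested genes 16.3% were called higher and 59.8% lower. With so few neighbours tested, 0 called higher is not set apart from that share. Genes as near as Fbxo39, 710 bases from Xaf1, and Tmprss2, 3781 bases from Mx2, were among those that did not pass. After median-of-ratios scaling both genes that had not been called were called higher, Mvb12a with a change of 0.48 (limma, adjusted p = 0.002427) and Ifitm1 with one of 0.63 (limma, adjusted p = 0.01036). Over all 12440 tested genes 4167 were called higher and 4181 lower under that scaling.

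Markers of macrophages were high in all libraries, with a summed level of 26924 to 28523 TPM in control and 35336 to 37845 TPM in LPS libraries, and of 9 markers 5 were called higher and 4 lower. For the counts of this paragraph, the shares over all tested genes were 16.3% higher and 59.8% lower. Markers of other cells that moved with LPS are given here because each of the 10 rose between the same libraries. The 13 neutrophil markers summed to 67.5 to 73.3 TPM in control and 222 to 244 TPM in LPS libraries, where the 4 that were tested were all called higher, 8 stayed under 1 TPM in every library and Ly6g, Retnlg and Stfa2l1 were at 0. The 5 monocyte markers summed to 9.54 to 12.03 TPM in control and 184 to 211 TPM in LPS libraries, with 2 of 3 tested called higher and 1 lower. The 7 plasmacytoid dendritic cell markers summed to 57.7 to 64.0 TPM in control and 24.8 to 29.7 TPM in LPS libraries, with 1 of 2 tested called lower, and Siglech, Ccr9, Pacsin1, Ly6d and Klk1 stayed under 1 TPM throughout. The 6 B cell markers summed to 57.6 to 63.1 and 0.5 to 1.07 TPM. Each of these 5 sums had an exact permutation p = 0.1, the smallest possible, and 0.15 after adjustment over 9 lists. Conventional dendritic cell markers summed to 9.67 to 13.98 TPM in control and 7.98 to 9.89 TPM in LPS libraries, T and NK cell markers to 0.76 to 2.77 and 0.2 to 0.49 TPM, fibroblast markers to 4.92 to 6.73 and 5.82 to 6.41 TPM, and erythroid markers to 0 to 0.39 and 0 to 0.35 TPM (exact permutation p = 0.2, 0.1, 0.6 and 1 in this order). Of the monocyte markers, Ly6c2 averaged 0.113 TPM without and 159 TPM with LPS, while Ccr2 went from 8.98 to 0.487 TPM. Of the neutrophil markers, Csf3r went from 31.3 to 109 TPM and S100a8 from 4.33 to 79.9 TPM. S100a9 averaged 0.593 and 0.543 TPM. The part of neutrophil and monocyte marker transcripts in the rise of the 10 was not tested.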

How the data were processed

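RNA-seq of 6 libraries (3 control, 3 LPS, grouped by the labels' treatment) was used as TPM values deposited by the authors, the unit being given by the name of the deposited table, with 2 decimals and each library summing to 1000000 within 0.75 TPM. Bowtie 0.12.2 and the builds mm8 and mm9 appear, with no role, in the submitters' processing notes. No source used here names the program behind the TPM, its genome build or whether strand was used. Depth is unknown, so no counting error can be given. Coordinates are those of GENCODE M21 on GRCm38, taken by gene identifier, and promoters are from RefSeq (GRCm38.p6). The gene length column equals the length of 1 GENCODE transcript for each of the 10 genes.

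From the deposited TPM, log2(TPM + 1) was computed for the 12440 genes that reached 1 TPM in 3 or more of the 6 libraries. It was tested with limma 3.58.1 (R 4.3.3; lmFit, eBayes with a trend; two-sided; Benjamini-Hochberg over all tested genes; limit 0.05). The log2(TPM + 1) scale understates changes of low genes. Sums and ratios were tested with exact two-sided permutation tests (Python 3.11.15, SciPy 1.17.1). For each single gene of the 10 the exact permutation test gave p = 0.1, the smallest possible with 3 against 3. The limma step was tested on simulated data with independent libraries and few changed genes. That simulation says nothing of how the counts in these data depend on scaling. Alternatives were another pseudocount (0.1), 2 other filters (5 TPM, none), 3 other scalings, limma without a trend, a replicate block, removal of the 2 most abundant genes, and leaving out each library.

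The 10 genes and the lists were chosen with earlier results of these data known, so no count or median of a list is independent support. Named are all 10, in each list the 2 largest rises and the 2 largest falls among called genes (all genes in lists of under 5), the neighbours, and the tested gene nearest in level to each. Fam3b, Fbxo39, Tmprss2 and Ifnb1 are named as neighbours or list members. Some genes that this rule would name are not reported here.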

Additional observations from a re-analysis of the deposited data

How the results depend on the processing

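Each of the 10 genes stayed called higher under all 15 alternatives, 150 results in all, with adjusted p (limma) between 1.262e-08 and 0.0005615. Over all tested genes the counts depended on scaling: against 2028 higher and 7441 lower in TPM there were 4167 and 4181 with median-of-ratios scaling, 3543 and 4875 with upper-quartile scaling, and 4029 and 4257 with quantile normalization. Whether equal replicate numbers mark paired libraries cannot be decided from 3 libraries per group. Deviations of same-numbered libraries from their group means correlated at 0.0744, -0.151 and 0.0765, and not every library correlated best with its own number. A replicate block gave 1993 higher and 7304 lower genes, and the 10 stayed higher, with the highest adjusted p at 0.0005615 (Ifitm6). The difference in summed conventional dendritic cell markers turned to 0.946 TPM with median-of-ratios scaling. That of fibroblast markers was 0.363 TPM, went to 2.42 TPM with median-of-ratios scaling (exact permutation p = 0.1), and ranged from -0.06 to 0.845 TPM when 1 library was left out. That of erythroid markers was 0.033 TPM with median-of-ratios scaling and ranged from -0.13 to 0.117 TPM when 1 library was left out. Without 1 library the permutation tests cannot go below p = 0.2. Unknown depth limits what can be said of genes near 1 TPM.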

Other observations

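For each of the 10 genes, the tested gene outside the 10 with the most similar values over the 6 libraries (Euclidean distance of log2(TPM + 1)) was found, which says nothing of shared function or control. The closest match was Sdc1, a cell surface proteoglycan, to Xaf1 (distance 0.209), with means of 22.2 TPM without and 158 TPM with LPS. Ms4a6d was nearest to Bst2 (distance 0.226), with means of 199.8 and 1474 TPM, and Ncf4, a subunit of the phagocyte NADPH oxidase, to Samhd1 (distance 0.239), with means of 208 and 337 TPM. Slc11a1, the phagosomal metal transporter, was nearest to Ifitm2 (distance 0.424), and Hmox1, which degrades haem, to Ifitm3, at the largest distance of the 10 (1.10), with means of 499 and 2579 TPM. Ifitm6 was nearest to Magohb (0.278), Cmpk2 to Rgl1 (0.34), Rsad2 to Spaca6 (0.346) and Mx2 to Phlda1 (0.605). Mx1 was nearest to an assembled locus with no gene symbol (0.443), with means of 3.3 TPM without and 104.5 TPM with LPS.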
